A study of Mus musculus with 27 samples.

Results

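This account follows 10 genes of glucose transport, glycogen breakdown, glycolysis and lactate formation, out of 24825 genes listed in the deposited FPKM tables, through all 9 groups of a C2C12 experiment. The genes were taken by symbol and are Slc2a4, Hk2, Pfkm, Pygm, Eno3 and Pgam2, which encode isoforms typical of skeletal muscle, Slc2a1 and Hk1, which encode broadly used isoforms, and Ldha and Ldhb, the subunit genes of lactate dehydrogenase. All 10 symbols were found in every file.

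Glucose enters a cell through facilitative transporters of the GLUT family, is trapped as glucose 6-phosphate by hexokinase, and is broken down by a chain of cytosolic enzymes to pyruvate, which lactate dehydrogenase can reduce to lactate. Several of these steps have tissue-specific isoforms encoded by separate genes. Differentiated skeletal muscle is known for a set of its own, while the counterparts made in most other tissues include PFKL, PYGB, PGAM1 and alpha-enolase. GLUT4, encoded by Slc2a4, is the insulin-responsive transporter of both muscle and adipocytes, whereas GLUT1, encoded by Slc2a1, serves basal uptake in many cells.

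C2C12 myoblasts are an immortal mouse cell line able to fuse into myotubes. Cells received by retrovirus a control vector, full-length NFIA, a transcription factor of the nuclear factor I family, or the Δpro#3 mutant, a shortened NFIA lacking a C-terminal part of the protein. Each was sampled at confluence (day 0), on day 7 of an adipocyte differentiation protocol, and on day 7 after 4 hours of 10 µM forskolin, which raises cyclic AMP, with 3 samples in each of the 9 groups and 27 in all. All cells taken to day 7, controls included, were given the same cocktail. It held isobutylmethylxanthine, indomethacin, dexamethasone, insulin, T3 and the PPARγ agonist rosiglitazone at first, and insulin, T3 and rosiglitazone afterwards. A change from day 0 to day 7 therefore combines time with this treatment. The cells remain a muscle-derived line driven by a constitutive viral promoter, so no group is a primary adipocyte, and no label ties the 3 samples of a group to separate cultures. The p-values therefore measure the spread between these samples, which may be technical.

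Levels are given as FPKM, fragments scaled to gene length and to the total counted in the sample, so they can be compared between genes. The gene totals recovered from the tables ran from 9567769 to 27230965 fragments per sample, with a median of 17707223. Nfia itself stood at 225 to 250 FPKM at day 0 with full-length NFIA and at 397 to 423 with the mutant, and at 374 to 528 at day 7 without forskolin in both. Introduced and endogenous Nfia fragments were counted together and scaled to a gene length of 9643 bases. The introduced RNA may have another length, so the Nfia level cannot be set against those of other genes. In control cells Nfia was below 1 FPKM in all samples except the second at day 0, which reached 7.35. The library labelled Δpro#3 mutant, day 7, replicate 1 stood apart in the summed FPKM of 16 adipocyte markers, at 2202 against 718 and 825 in its companions.

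The 20 myotube markers summed to between 17231 and 20301 FPKM in control cells at day 7, to between 2520 and 3392 with full-length NFIA and to between 18944 and 19846 with the mutant. The 16 adipocyte markers summed to between 399 and 438, between 14615 and 16162, and between 718 and 2202 in the same order. At day 7 the adipocyte marker sum was thus highest and the myotube marker sum lowest with full-length NFIA, while the mutant cells overlapped with the control range of the myotube markers. All 20 myotube markers still had a mean of 1 FPKM or more with full-length NFIA at day 7. Their sum there was above the 147 to 155 FPKM of the same cells at day 0. Ucp1, the thermogenic uncoupling protein, was at 0 FPKM in the day 7 cells with full-length NFIA, and both Lep and Ucp1 were at 0 in the day 7 controls. In bulk RNA, fewer cells of a type and less of an RNA per cell cannot be told apart. The part of these markers in the results below was not tested.

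Promoter letters are shown for 3 muscle enzymes, so that they can be read beside the 3 genes that rose with forskolin in every construct, a choice made after the values were seen. They come from RefSeq on GRCm38.p6 and cover 250 bases before to 50 bases after the annotated start. In all, 9 of the 10 genes matched, with 14 promoters. No entry was found for Slc2a4. Capitals mark 4 motifs found on either strand: CAGCTG (an E-box of the kind bound by myogenic factors), ACGTG (core of the hypoxia response element), TGACG (part of the cyclic AMP response element) and TTGGC (part of the NFI site). The muscle genes Pygm (chr19:6384158-6384457, plus strand), Pgam2 (chr11:5803747-5804046, minus strand) and Eno3 (chr11:70656926-70657225, plus strand) are followed by Slc2a1 (chr4:119108495-119108794, plus strand), Hk2 (chr6:82774405-82774704, minus strand) and the upstream of 2 Ldha promoters (chr7:46845554-46845853, plus strand).
Pygm: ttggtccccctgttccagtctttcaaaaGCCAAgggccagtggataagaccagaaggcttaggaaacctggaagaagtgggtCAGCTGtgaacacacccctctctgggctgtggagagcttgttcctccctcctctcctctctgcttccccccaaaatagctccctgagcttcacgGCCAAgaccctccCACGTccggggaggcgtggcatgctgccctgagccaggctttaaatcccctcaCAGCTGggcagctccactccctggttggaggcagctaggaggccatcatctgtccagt
Pgam2: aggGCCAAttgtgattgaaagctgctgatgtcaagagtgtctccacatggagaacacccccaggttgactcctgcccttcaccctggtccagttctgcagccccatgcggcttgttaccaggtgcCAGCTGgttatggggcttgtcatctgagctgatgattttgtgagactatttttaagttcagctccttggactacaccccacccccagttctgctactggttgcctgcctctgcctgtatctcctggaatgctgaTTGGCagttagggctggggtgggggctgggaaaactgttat
Eno3: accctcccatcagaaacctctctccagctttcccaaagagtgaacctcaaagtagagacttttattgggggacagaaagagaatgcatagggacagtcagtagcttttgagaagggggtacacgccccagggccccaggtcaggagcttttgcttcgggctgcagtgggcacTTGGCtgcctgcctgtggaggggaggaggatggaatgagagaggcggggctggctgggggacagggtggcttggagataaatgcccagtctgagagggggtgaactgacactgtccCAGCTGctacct
Slc2a1: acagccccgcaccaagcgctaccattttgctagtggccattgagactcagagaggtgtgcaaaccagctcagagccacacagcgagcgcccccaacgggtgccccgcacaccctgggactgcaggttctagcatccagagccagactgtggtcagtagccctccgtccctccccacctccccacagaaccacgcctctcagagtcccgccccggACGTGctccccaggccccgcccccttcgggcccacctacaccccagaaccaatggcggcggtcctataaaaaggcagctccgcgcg
Hk2: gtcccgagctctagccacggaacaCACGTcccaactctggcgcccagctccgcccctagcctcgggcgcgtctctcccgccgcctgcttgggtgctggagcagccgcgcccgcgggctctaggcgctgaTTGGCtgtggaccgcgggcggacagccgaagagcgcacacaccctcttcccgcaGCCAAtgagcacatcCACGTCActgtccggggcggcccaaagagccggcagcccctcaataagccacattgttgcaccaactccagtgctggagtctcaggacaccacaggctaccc
Ldha: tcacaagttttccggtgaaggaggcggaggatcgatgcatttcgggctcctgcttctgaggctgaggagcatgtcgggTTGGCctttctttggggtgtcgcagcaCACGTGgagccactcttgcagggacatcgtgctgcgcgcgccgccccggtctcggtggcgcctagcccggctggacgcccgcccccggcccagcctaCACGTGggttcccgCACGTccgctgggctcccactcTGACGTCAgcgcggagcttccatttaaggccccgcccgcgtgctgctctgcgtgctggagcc

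Pygm held 2 CAGCTG motifs, with their first bases 168 and 8 bases before the start, Pgam2 held 1 at 125 bases before it, and Eno3 held 1 that began 38 bases after it. This motif was absent from the windows of the other members that matched, and 16.3% of 32851 promoters of the same length held it. Ldha held 5 ACGTG matches, 4 of them as overlapping pairs on opposite strands, and 2 overlapping TGACG matches 12 and 9 bases before its start. Slc2a1 held 1 ACGTG, 36 bases before its start, and Hk2 held 2, of which 1 overlapped its single TGACG. Slc2a1 lacked the cyclic AMP motif. The hypoxia motif was also found in genes that did not rise with forskolin in every construct. Pygm held 1 match, 61 bases before its start, and 1 Hk1 promoter held 2. Of the Pfkm promoters, 1 held 3 matches and another held 1. Of all promoters 19.6% held ACGTG, while TGACG was in 20.8% of them and TTGGC in 46.7%. These matches describe letters in a window and no binding was measured here.

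All 6 muscle isoforms rose as control cells differentiated, from day 0 levels that ran from under 1 FPKM for Slc2a4 to above 200 FPKM for Eno3. For each gene the change from day 0 to day 7 was tested with limma on log2(FPKM + 1), a scale that understates changes of genes with low FPKM. Between these days 9 of the 10 genes rose and 1, Hk1, fell, against 36.0% of 12408 tested genes that rose and 42.7% that fell. Of the 10, 5 changed by over 3-fold on the FPKM + 1 scale, against 6.70% of all genes. Over these genes the median log2 change was 1.56, and over all genes tested it was -0.06.

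Pgam2, the muscle subunit of phosphoglycerate mutase, had 3.86, 4.30 and 4.61 FPKM in the control samples at day 0 and 286, 299 and 357 at day 7. It rose by 5.90 ± 0.08 (SE, n = 3 per group) on the log2 scale (limma, adjusted p = 2.37e-18). Slc2a4 had 0.223, 0.207 and 0.162 FPKM at day 0, from 12 to 16 fragments a sample, and 21.5, 23.7 and 25.6 at day 7. No sample of day 0 came near those of day 7 for either gene. Pygm, the muscle glycogen phosphorylase, had 5.54, 5.85 and 5.86 FPKM at day 0 and 96.0, 100 and 107 at day 7. Its log2 change was 3.91 ± 0.08, and those of Slc2a4, Pfkm and Hk2 were 4.36 ± 0.08, 1.85 ± 0.05 and 1.67 ± 0.07. Eno3, which encodes muscle enolase, rose less, by 0.81 ± 0.07. Ldhb rose by 1.46 ± 0.08, Slc2a1 by 1.14 ± 0.09 and Ldha by 0.36 ± 0.04, while Hk1 fell by 0.90 on the log2 scale. Of the counterpart isoforms, Pygb, Pfkp and Pfkl fell by 0.93, 0.39 and 0.14 on that scale, whereas Eno2 rose by 0.93 ± 0.11 and Pgam1 by 0.37 ± 0.06.

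**Figure D1:**
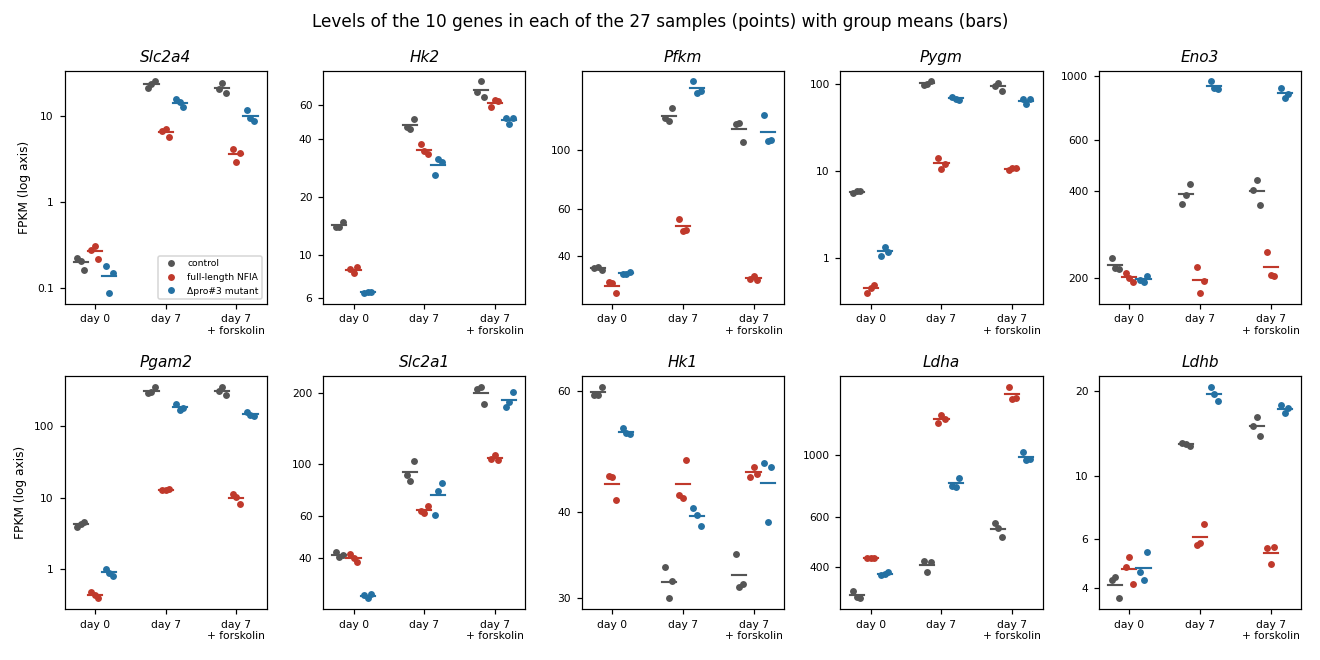
FPKM (log axis) of the 10 genes in each of the 27 samples, shown as points, with bars for the means of 3 samples in each of the 9 groups; columns are day 0, day 7 and day 7 with forskolin. Pgam2 and Pygm stand near 100 FPKM or higher in control cells at day 7 and near 10 FPKM with full-length NFIA, and Ldha is highest with full-length NFIA.

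Myoblasts expressing either construct already differed from control myoblasts at day 0. Of 9 genes tested there (Slc2a4 was under the filter), 1 rose and 6 fell with full-length NFIA, where 37.7% of 12105 genes rose and 35.6% fell. With the mutant 1 rose and 6 fell, against 32.5% and 29.7% of all genes. Over 3-fold changes numbered 2 and 1, with 5.24% and 2.18% of all genes. These comparisons share the control samples. The single gene past 3-fold with the mutant, Pygm, lay near the limit, and without mutant replicate 1 the count was 0.

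Pygm at day 0 had 0.394, 0.456 and 0.492 FPKM with full-length NFIA and 1.05, 1.35 and 1.18 with the mutant. Pgam2 had 0.474, 0.437 and 0.390 FPKM with full-length NFIA and 1.01, 0.898 and 0.809 with the mutant. The 3 groups did not overlap for either gene, with controls highest and full-length NFIA lowest. Pygm was 12.8-fold lower with full-length NFIA than in controls in FPKM (log2 change -2.22 ± 0.06, limma, adjusted p = 1.2e-10) and 4.82-fold lower with the mutant (-1.62 ± 0.06, adjusted p = 3.59e-09). Pgam2 was 9.81-fold and 4.70-fold lower. Hk2, the insulin-regulated hexokinase of muscle and fat, fell to 8.10 to 8.67 FPKM with full-length NFIA and to 6.34 to 6.45 with the mutant, from 13.9 to 14.8 in controls. Its fall was larger with the mutant (log2 -1.04 ± 0.04) than with full-length NFIA (-0.70 ± 0.04), and the constructs differed by -0.34 ± 0.04 (adjusted p = 1.58e-05). Slc2a1 fell with the mutant, at 26.8 to 28.1 FPKM against 40.1 to 42.4 in controls and 38.1 to 41.2 with full-length NFIA, where the test was not passed (-0.05 ± 0.04, adjusted p = 0.209). The direct comparison of the constructs for Slc2a1 gave -0.51 ± 0.04 (adjusted p = 4.18e-07). Ldha rose in both, by 0.45 ± 0.03 and 0.26 ± 0.03.

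With the constructs set against each other at day 0, 4 of the 9 genes were higher with the mutant (Pfkm, Pygm, Pgam2 and Hk1), 3 were lower (Hk2, Slc2a1 and Ldha), and none passed 3-fold. Among all genes 33.4% were higher, 31.9% lower and 2.05% past 3-fold. The 20 myotube markers summed to between 1691 and 1796 FPKM in control myoblasts, 147 to 155 with full-length NFIA and 433 to 442 with the mutant. Of 18 of these tested, 18 fell with full-length NFIA and 17 with the mutant. All 12 proliferation markers rose with full-length NFIA.

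At day 7 full-length NFIA cells differed from control cells in all 10 genes. Here 2 rose, Ldha and Hk1, and 8 fell, with 4 past 3-fold. Over 12324 genes tested, 31.3% rose, 41.1% fell and 8.17% passed 3-fold. All 6 muscle isoforms were among those that fell, with a median log2 change of -1.53, where all genes had -0.08.

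Pgam2 had 12.7, 12.6 and 13.0 FPKM in the 3 samples with full-length NFIA, and was 24.5-fold below control in FPKM (log2 -4.51 ± 0.09, limma, adjusted p = 1.17e-10). Pygm had 14.2, 10.4 and 12.1 FPKM and was 8.26-fold below control (-2.95 ± 0.09, adjusted p = 1.55e-09). Slc2a4 had 6.75, 7.06 and 5.71 FPKM and was 3.62-fold below control (-1.71 ± 0.10, adjusted p = 1.1e-07). Every one of these samples lay under the lowest control sample. GLUT4 is a known product of adipocytes also, and its level with full-length NFIA was 24.4-fold above that of the same cells at day 0. That fold rests on a day 0 level of 0.218 to 0.308 FPKM, from 7 to 22 fragments a sample. Over the same days the mean of Slc2a4 in control cells went from 0.198 to 23.6 FPKM, a larger rise. Whether the Slc2a4 level with full-length NFIA came from adipocyte-like cells was not tested. Pfkm, muscle phosphofructokinase, had 55.2, 49.8 and 50.3 FPKM against 131, 127 and 142 in controls. Eno3 had 218, 177 and 194 FPKM against 360, 386 and 421. The log2 differences of Pfkm and Eno3 were -1.35 ± 0.06 and -0.99 ± 0.08. Hk2 fell least, by 0.42 on the log2 scale, from 45.2 to 51.0 FPKM in controls to 33.3 to 37.6.

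The broadly used isoforms went in different directions. Slc2a1 had 62.9, 61.8 and 66.3 FPKM with full-length NFIA and 89.5, 84.9 and 103 in controls, a log2 difference of -0.53 ± 0.11 (limma, adjusted p = 0.00129). Hk1 had 42.0 to 47.7 FPKM against 30.0 to 33.3, a difference of 0.46 ± 0.06. Ldha, which encodes the subunit favoured in glycolytic muscle and in hypoxia, reached 1312, 1396 and 1353 FPKM against 419, 382 and 416 (1.74 ± 0.06, adjusted p = 3.22e-09). Its samples with full-length NFIA were all above 1300 FPKM, higher than any other member at day 7. Ldhb, the subunit typical of heart, had 5.69, 5.77 and 6.78 FPKM against 13.1, 13.0 and 12.8, and fell by 0.99 on the log2 scale. A list of 14 hypoxia genes outside glycolysis had 10 that rose and 3 that fell in this comparison, and its summed level was 1664 to 1743 FPKM with full-length NFIA and 724 to 841 in controls. Its part in the Ldha result was not tested.

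Of 5 counterparts of the muscle enzymes tested, 3 rose, 1 fell and 1 did not pass. Pygb, brain-type glycogen phosphorylase, had 98.8, 111 and 101 FPKM with full-length NFIA and 12.8, 13.5 and 11.4 in controls (log2 2.95 ± 0.09). Pfkl, the liver-type phosphofructokinase, had 149, 146 and 149 FPKM against 39.3, 34.5 and 39.3 (1.95 ± 0.06), and Pgam1 had 222, 232 and 226 against 85.2, 76.4 and 83.9 (1.46 ± 0.05). None of these samples overlapped with the controls. Pfkp, the platelet type, did not pass the test (0.09 ± 0.07), and Eno2, neuron-type enolase, fell by 1.69 on the log2 scale. Pygl, the liver phosphorylase, was below 1 FPKM in all samples at day 7 and was not tested.

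The composition of each isoform family was expressed as the percentage of its summed FPKM that the muscle-type gene supplied. Pygm made up 88.8% ± 1.22 (SD, n = 3) of the glycogen phosphorylase FPKM in control cells at day 7, 10.5% ± 1.99 with full-length NFIA and 82.6% ± 1.37 with the mutant. Pgam2 made up 79.2% ± 2.0, 5.34% ± 0.15 and 61.6% ± 2.24 of the phosphoglycerate mutase FPKM. Pfkm made up 66.5% ± 0.69, 22.4% ± 1.15 and 60.9% ± 1.84 of the phosphofructokinase FPKM. For each of these 3 families the groups at day 7 were ordered control, mutant, full-length NFIA and did not overlap. At day 0 Pfkm made up 31.0%, 32.6% and 32.4% of its family, so that its share fell with time in the full-length NFIA cells and rose in the others. Slc2a4 made up 20.4% ± 1.29 of the summed Slc2a4 and Slc2a1 FPKM in controls at day 7, 9.29% ± 1.21 with full-length NFIA and 16.7% ± 3.76 with the mutant, whose range overlapped that of the controls. Hk2 made up 59.9% ± 1.80 of the summed Hk2 and Hk1 FPKM, 44.4% ± 3.04 and 42.5% ± 3.08, the last pair overlapping each other. Ldha held 96.9% or more of the lactate dehydrogenase mean in every group.

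An exact two-sided permutation test of 3 against 3 samples cannot give a p under 0.1. Over 105 such tests (7 families and 15 pairs of groups) 93 reached 0.1, and the smallest adjusted value was 0.113, so that none passed.

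Enolase needs a separate word, since its usual partner could not be read. Eno1, alpha-enolase, was listed at under 0.1 FPKM in all samples. The authors kept uniquely placed reads only, and the coding sequences of Eno1 and its near copy Eno1b were identical at 99.39% of 1305 bases, with 8 differences and a longest identical run of 725 bases. Reads that match both copies equally were not counted under that rule, so the levels of both genes are uncertain. Eno3 shared 76.7% with Eno1 and no identical run over 20 bases. Eno1b had 70.0, 70.4 and 73.8 FPKM with full-length NFIA at day 7 against 33.2, 30.7 and 33.0 in controls. Without Eno1b, Eno3 made up 93.7% of the enolase FPKM in controls and 96.3% with full-length NFIA, and with Eno1b counted, a choice made after seeing the data, it made up 86.9% and 71.2%. The direction of that share thus depends on the copy.

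**Figure D2:**
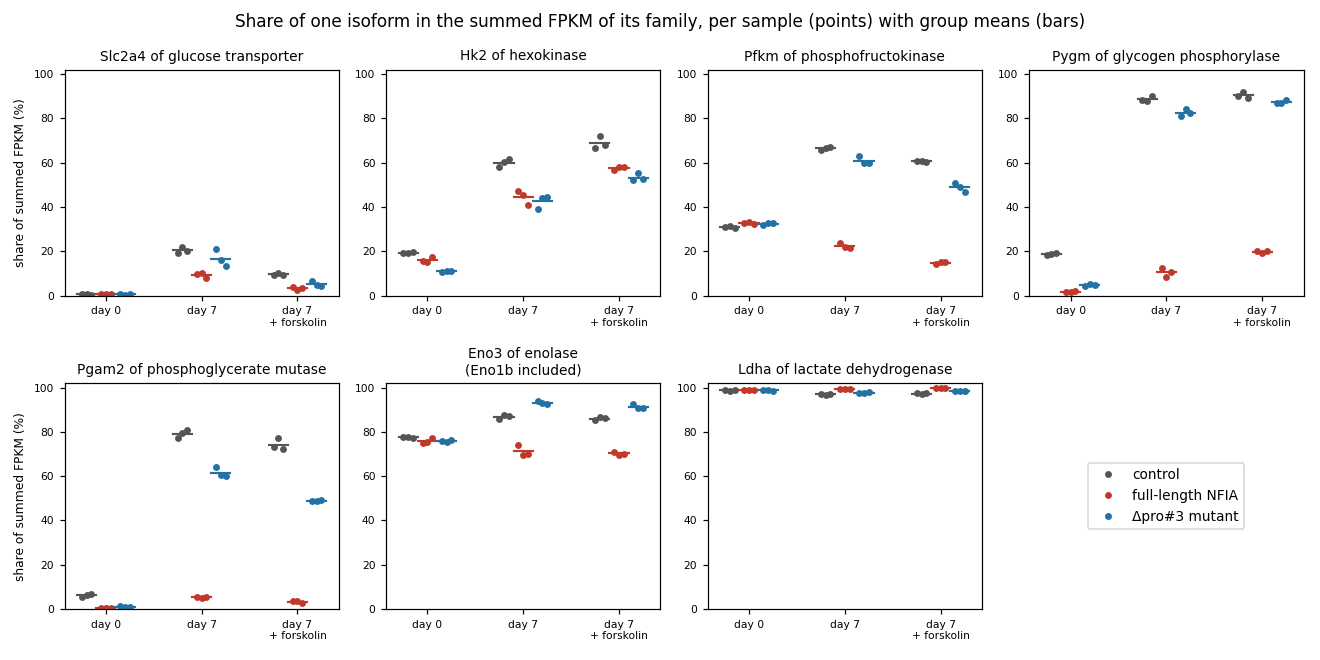
Percentage of the summed FPKM of each isoform family that came from the muscle-type gene (Ldha for lactate dehydrogenase), by sample (points) with group means (bars), at day 0, day 7 and day 7 with forskolin; the enolase panel includes Eno1b. At day 7 Pygm held 88.8%, 10.5% and 82.6% of its family in control cells, with full-length NFIA and with the mutant.

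The Δpro#3 mutant at day 7 split the muscle isoforms. Against control, 5 of the 10 genes rose (Pfkm, Eno3, Hk1, Ldha and Ldhb), 5 fell (Slc2a4, Hk2, Pygm, Pgam2 and Slc2a1) and 0 passed 3-fold. The shares over all genes were 21.3%, 27.5% and 1.44%. The control samples here are those used for full-length NFIA.

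Eno3 had 960, 912 and 900 FPKM with the mutant, above every control and full-length NFIA sample, and its log2 difference from control was 1.25 ± 0.08 (limma, adjusted p = 3.11e-06). Pfkm had 179, 162 and 165 FPKM, also above all controls (0.34 ± 0.06, adjusted p = 0.00186). Pygm had 71.2, 66.5 and 65.9 FPKM (-0.56 ± 0.09), Pgam2 203, 170 and 177 (-0.77 ± 0.09), and Slc2a4 16.0, 14.6 and 12.8 (-0.67 ± 0.10), all between the ranges of the other constructs. The myotube markers showed 4 of 20 higher, 6 lower and 10 not past the test. Hk2 had 25.9, 31.5 and 30.5 FPKM, the lowest of the constructs. Ldha had 780, 773 and 830 FPKM (0.97 ± 0.06), between controls and full-length NFIA. Ldhb had 20.8, 19.6 and 18.5 FPKM, the highest of the constructs (0.56 ± 0.07). Slc2a1 had 60.8, 77.0 and 82.6 FPKM, and its fall (-0.33 ± 0.11, adjusted p = 0.0268) was lost without mutant replicate 1 (adjusted p = 0.0628), control replicate 1 (0.0517) or control replicate 3 (0.0997), and with another scaling of the samples (0.0602). Replicate 1 of the mutant, which held the most adipocyte marker FPKM, was the lowest of its group for Slc2a1 and Hk2. It was the highest of its group for Eno3, Pfkm, Pygm, Pgam2, Slc2a4 and Ldhb.

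Set directly against full-length NFIA, the mutant had 6 genes higher and 2 lower, with 4 past 3-fold, and over all genes 34.3%, 29.4% and 6.30%. Pgam2 was 14.3-fold, Pygm 5.55-fold, Eno3 4.70-fold and Pfkm 3.26-fold higher in FPKM with the mutant. Ldha was lower by -0.77 ± 0.06. Hk2 was lower by -0.26 ± 0.08 (limma, adjusted p = 0.0177), which was lost without full-length NFIA replicate 1 (0.0681) or mutant replicate 1 (0.0501). Slc2a1 (0.19 ± 0.11, adjusted p = 0.142) and Hk1 (-0.15 ± 0.06, 0.0561) did not pass. Without mutant replicate 1, Slc2a1 was higher with the mutant (0.32, adjusted p = 0.00593), and Hk1 was lower without full-length NFIA replicate 2 (0.0465), with another scaling (-0.20, 0.0202) and with limma-voom (-0.16, 0.0479).

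**Figure D3:**
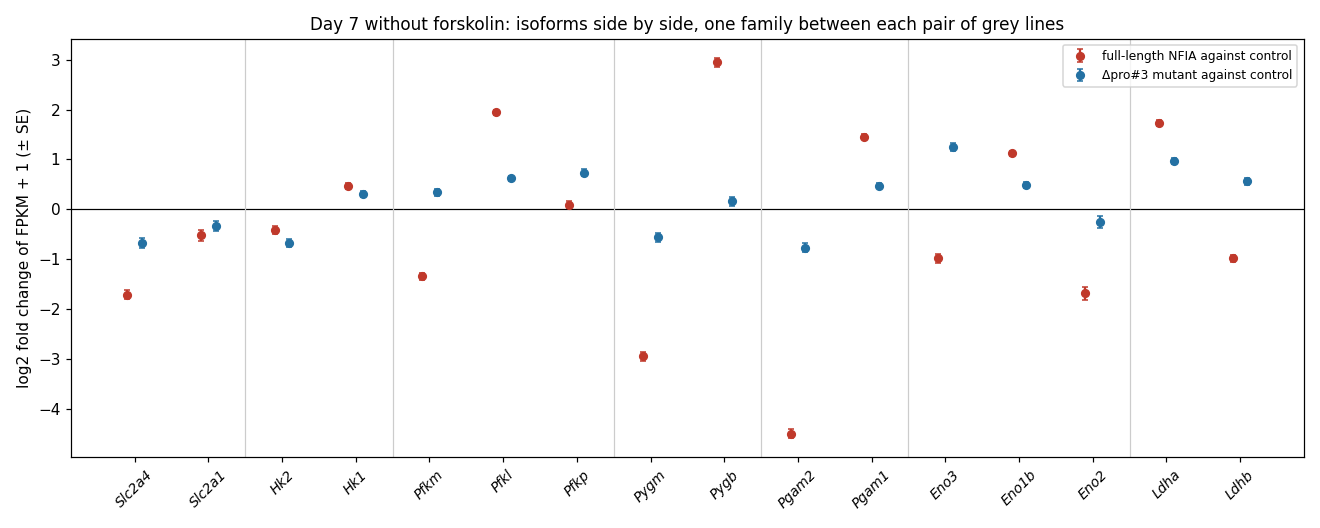
Log2 fold change of FPKM + 1 against control at day 7, with SE bars from limma (n = 3 per group), for each construct; genes of a family stand between grey lines. Pgam2 and Pygm lie at -4.51 and -2.95 with full-length NFIA, beside 1.46 for Pgam1 and 2.95 for Pygb.

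Other genes of glucose handling were read from a list of 77 outside the 10. With full-length NFIA at day 7, 45 of 68 tested rose and 13 fell, where 31.3% and 41.1% of all genes did. With the mutant 23 rose and 16 fell, where 21.3% and 27.5% of all genes did. All 8 of the other glycolytic enzymes tested rose with full-length NFIA, among them Gpi1, phosphoglucose isomerase, at 466 against 147 FPKM. Of 18 genes of pyruvate and lactate handling 13 rose and 2 fell. Those that rose included Gpd1, which makes glycerol 3-phosphate, at 888 FPKM against 13.3, and pyruvate carboxylase Pcx at 232 against 22.6. Of 19 glycogen genes 9 rose and 7 fell, a median log2 change of 0.04 beside -0.08 over all genes, with Gbe1, the branching enzyme, up by 1.89 ± 0.07 and Stbd1, a glycogen-binding protein, down at -1.91 ± 0.11. Of 10 genes of GLUT4 traffic 7 rose and 1 fell. The Rab regulators Tbc1d4 and Tbc1d1 changed in opposite directions, by 2.24 ± 0.11 and -2.09 ± 0.08, and Tusc5, which promotes GLUT4 recycling in adipocytes, rose from 1.16 to 63.5 FPKM. The myotube markers fell in 20 of 20 and the adipocyte markers rose in 14 of 14 tested in the same comparison.

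The course of differentiation was then compared between constructs. With full-length NFIA 8 of the 10 genes rose from day 0 to day 7, 0 fell and 5 passed 3-fold, against 33.2%, 46.5% and 10.1% of all genes. Since other scaling of the samples moved the higher share of the calls over all genes from 41.6% to 51.7%, and the median of all genes from -0.11 to 0.01, small changes there are relative to that shift. Eno3 (-0.03 ± 0.07, adjusted p = 0.681) and Hk1 (0.00 ± 0.05, 0.999) did not pass, and under that scaling they stood at 0.12 (adjusted p = 0.124) and 0.15 (0.0171), so that Hk1 was then called as higher. With the mutant 9 rose and 1 fell, with 7 past 3-fold, against 32.8%, 46.7% and 6.84%. The median of all genes moved there from -0.11 to 0.00.

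Differences between these courses were called at an adjusted p below 0.05 and over 2-fold. Against control, full-length NFIA had 5 such genes, with 18.6% of all 12408 genes called. The rise was smaller for Pgam2 (difference -2.63 ± 0.11), Slc2a4 (-1.79 ± 0.12), Pfkm (-1.14 ± 0.07) and Ldhb (-1.14 ± 0.12), and larger for Ldha (1.29 ± 0.06). Pgam2 and Slc2a4 were low at day 0 with full-length NFIA, so the sizes of their differences depend on the pseudocount. Pgam2 started lower there than in controls, and the FPKM + 1 scale makes its difference larger than in FPKM. Pygm gave -0.73 ± 0.11, but 0.38 with a pseudocount of 0.1 (limma, adjusted p = 0.0275) and 0.60 with limma-voom (adjusted p = 0.0309). The opposite direction was thus also called, and no direction is taken from this gene. In FPKM it rose 17.5-fold in control and 27.3-fold in full-length NFIA cells, which ended at the lower level. The mutant differed from control in 2 genes, Eno3 (1.41 ± 0.10) and Pygm (1.06 ± 0.11), where 6.21% of all genes were called. Pgam2 stayed under 2-fold on this scale, at 0.62 to 0.79 when samples were left out. Its day 0 level was lower in the mutant than in controls, and the scale understates such a rise. Another scaling moved the higher share of all genes past the p threshold in the comparison of mutant and control from 42.2% to 53.1%. Eno3 rose 4.68-fold in FPKM in the mutant cells, 1.76-fold in controls and not past the test with full-length NFIA, from day 0 levels between 193 and 234 FPKM in all constructs.

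**Figure D4:**
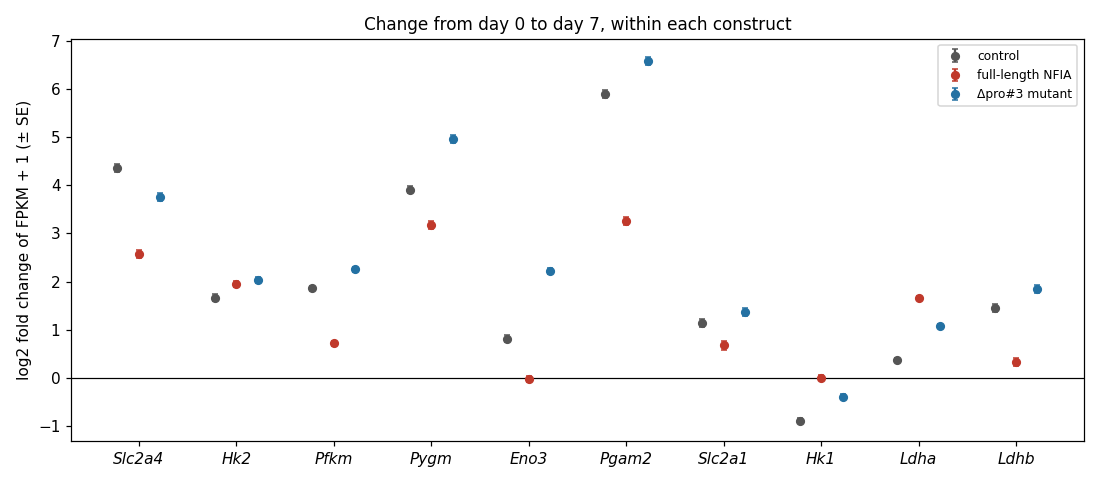
Log2 fold change of FPKM + 1 from day 0 to day 7 within each construct, with SE bars from limma (n = 3 per group). Control and mutant cells lie far above full-length NFIA cells for Pgam2 (5.90, 6.59 and 3.27), whereas Ldha is highest with full-length NFIA (1.65). Pgam2 was lower at day 0 with either construct than in controls, and this scale understates a rise from a low level.

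Forskolin at day 7 raised Slc2a1, Hk2 and Ldha in each construct. In controls 3 rose and 0 fell, against 7.05% and 13.5% of 12245 genes. With full-length NFIA 3 rose and 3 fell (13.9% and 41.5% of all genes), and with the mutant 3 rose and 3 fell (11.9% and 23.9%). None of the 10 passed 3-fold, against 0.392%, 0.743% and 0.588% of all genes in the same order. Another scaling moved the higher share of the calls over all genes from 34.3% to 51.7% in controls and from 25.0% to 43.9% with full-length NFIA, where the median of all genes was -0.15. Under that scaling 5 genes rose and 2 fell with full-length NFIA, as Eno3 (0.28, adjusted p = 0.0196) and Hk1 (0.19, 0.0324) gained a call and Pgam2 lost one (0.122). With the mutant 4 rose and 2 fell, as Hk1 gained a call (0.0436) and Pgam2 lost one (0.0684), and in controls Ldhb also rose (0.25, 0.0271).

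Slc2a1 with forskolin had 207, 213 and 179 FPKM in controls, 105, 109 and 104 with full-length NFIA and 175, 183 and 203 with the mutant. All 9 samples were above every day 7 sample of the same construct without forskolin. Its log2 changes were 1.10 ± 0.10, 0.73 ± 0.10 and 1.34 ± 0.10 (limma, adjusted p = 5.41e-07, 1.26e-05 and 2.94e-08). The mutant response exceeded that with full-length NFIA by 0.62 ± 0.14 (adjusted p = 0.00475), while full-length NFIA differed from control by -0.38 ± 0.14 (adjusted p = 0.0491), a call lost in 12 of 18 fits that left out 1 sample, at 0.0538 to 0.119, and with another scaling (0.134), no filter (0.0812), no trend (0.0573) or a pseudocount of 0.1 (0.0540). Hk2 reached 66.3 to 79.5 FPKM in controls, 58.6 to 63.9 with full-length NFIA and 47.9 to 51.3 with the mutant, up by 0.59 ± 0.08, 0.80 ± 0.08 and 0.76 ± 0.08. Ldha reached 512 to 574, 1593 to 1766 and 963 to 1028 FPKM, up by 0.43 ± 0.06, 0.29 ± 0.06 and 0.31 ± 0.06. Hypoxia genes outside glycolysis rose in 9, 5 and 13 of 14 in the 3 constructs, and none fell. Over all genes 7.05%, 13.9% and 11.9% rose and 13.5%, 41.5% and 23.9% fell, shares that the other scaling moved.

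Slc2a4 with forskolin had 21.1, 24.7 and 18.5 FPKM in controls, 4.18, 2.90 and 3.76 with full-length NFIA and 11.8, 9.58 and 8.82 with the mutant. It overlapped its untreated range in controls (-0.14 ± 0.13, adjusted p = 0.503) and fell below it with full-length NFIA (-0.71 ± 0.13) and the mutant (-0.48 ± 0.13). Pfkm likewise fell, by 0.63 and 0.54 on the log2 scale, and gave -0.17 ± 0.08 in controls (adjusted p = 0.166). Pgam2 fell by 0.35 with full-length NFIA (adjusted p = 0.0133), which was lost without forskolin replicate 3 of full-length NFIA (0.0875), and by 0.32 with the mutant (0.0295), which was lost without untreated replicate 1 (0.134) or forskolin replicate 2 (0.0781) or 3 (0.0967) of the mutant. Both were lost under the other scaling. Among the counterparts Pygb fell in all constructs, by 0.35, 1.29 and 0.61.

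Tested as differences between constructs, 0 of the 10 genes passed 2-fold in the forskolin response of full-length NFIA or of the mutant against control, with 2.70% and 0.678% of all genes called. Slc2a4 (-0.57 ± 0.18) and Pfkm (-0.46 ± 0.12) passed the p threshold against control with full-length NFIA, at adjusted p = 0.0249 and 0.00686. The Slc2a4 call was lost without untreated control replicate 1, untreated full-length NFIA replicate 1 or 2, or forskolin replicate 2 of either, at 0.0523 to 0.0705, and under another scaling (-0.51, 0.0523). That scaling moved the higher share of all genes past the p threshold from 29.9% to 45.3% there. Ldhb passed the p threshold in both (-0.35 ± 0.10 and -0.36 ± 0.10). Its call in the mutant was lost in 11 of 18 fits that left out 1 sample, at 0.0529 to 0.120, and with no filter (0.0602), no trend (0.05004), a pseudocount of 0.1 (0.0587) or a replicate block (0.0614). The adjusted p for Slc2a4 and Pfkm in the mutant was 0.317 and 0.08.

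**Figure D5:**
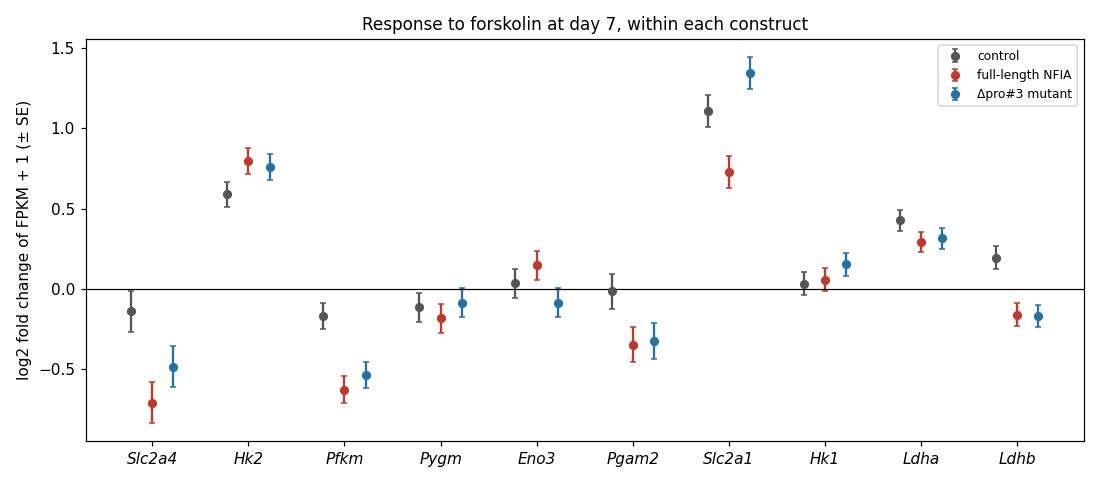
Log2 fold change of FPKM + 1 with forskolin at day 7 within each construct, with SE bars from limma (n = 3 per group). Slc2a1, Hk2 and Ldha lie above 0 in every construct, and Slc2a4 and Pfkm lie lowest with full-length NFIA (-0.71 and -0.63).

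Between the forskolin-treated groups, full-length NFIA had 2 genes higher than control and 8 lower, with 5 past 3-fold, where 25.5%, 47.0% and 8.02% of 12121 genes were higher, lower and past 3-fold. Pgam2 was 31.4-fold, Pygm 8.84-fold and Slc2a4 5.92-fold below control in FPKM. The count past 3-fold was 4 to 5 when samples were left out, with Ldha near the limit (log2 1.55 to 1.64). Hk2 (-0.21 ± 0.07, adjusted p = 0.0173) lost its call without control replicate 2 (0.0728) or full-length NFIA replicate 1 (0.0521) and under another scaling (0.776), which moved the higher share of all calls from 35.2% to 49.7%. The mutant had 4 higher (Eno3, Hk1, Ldha and Ldhb) and 4 lower (Slc2a4, Hk2, Pygm and Pgam2) than control and 0 past 3-fold, against 19.5%, 27.1% and 1.55%. The Ldhb call (0.20 ± 0.07, adjusted p = 0.045) was lost when control replicate 1 or 3 or any of the 3 mutant samples was left out, at 0.0591 to 0.167. Against full-length NFIA the mutant had 7 higher and 2 lower, with 4 past 3-fold, against 42.0%, 24.2% and 6.20%. That higher share of calls moved from 63.4% to 50.2% under another scaling.

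Over the means of the 9 groups the muscle isoforms followed each other to different degrees. Pygm and Pgam2 had a Pearson r of 0.99 on the log2(FPKM + 1) scale, Slc2a4 and Pgam2 0.96, and Pfkm and Eno3 0.88, while Eno3 and Hk2 had 0.46. Ldhb, the heart-type subunit, had 0.97 with Pfkm. Ldha had 0.18 with Ldhb and 0.60 or less with every other member, and Hk1 had negative values with all of them. These values describe 9 points that share cells, time and treatment, and no test was made. Among 11582 genes the profile closest to Pygm was that of Lmod2, a thin-filament protein (r = 0.997), the closest to Pgam2 that of Ankrd2 (0.998), and the closest to Slc2a4 that of Extl1 (0.998). The profile of Ldha was closest to Fam162a (0.990), that of Hk1 to Nck2 (0.988) and that of Slc2a1 to Snora30 (0.974).

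On NCBIM37 (mm9) 6 of the members lay at chr11:5701643-5703736 for Pgam2 (minus strand), chr11:69756045-69761690 for Slc2a4 (minus strand), chr11:70470704-70476015 for Eno3 (plus strand), chr19:6384399-6398459 for Pygm (plus strand), chr15:97923020-97962878 for Pfkm (plus strand) and chr7:54096845-54110997 for Ldha (plus strand).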

How the data were processed

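Polyadenylated RNA of 27 C2C12 samples was sequenced from stranded libraries. The authors aligned reads to mm9 with STAR 2.5.3a, kept uniquely placed reads on the matching strand, and deposited FPKM values, 1 file per sample with 24825 rows. Fragments were recovered here from the FPKM steps and the gene lengths to give depth. Rows with a symbol turned into a date (26) or repeated (2) were handled by row. Groups were taken from the sample labels.

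FPKM + 1 was put on the log2 scale and fitted with limma 3.58.1 in R 4.3.3 (empirical Bayes with a trend, Benjamini-Hochberg adjustment over every gene whose mean was at least 0.5 FPKM). Rose and fell mean an adjusted p below 0.05. Comparisons of constructs used the 9 samples of a day and treatment, and those over time or forskolin used 18. The fit was tested on simulated data. Isoform shares were compared with exact permutation tests in scipy 1.17.1. Alternatives were another pseudocount (0.1), minimum FPKM of 5 or none, median-ratio scaling, limma-voom on fragments, no trend, only the groups compared, a replicate block, fragments in place of FPKM for shares, and leaving out each sample. Profile likeness was Pearson's r over the group means. Samples of a group differed beyond sampling noise (chi-squared per gene 1.55 to 15.0 over 27 pairs), so none was merged. The 10 members, the lists, the rule for named genes (the members, their counterparts, at most 3 genes per list and comparison with the widest changes past 3-fold, and the profiles closest to each member) and the tests were chosen with earlier results of these data known.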

Additional observations from a re-analysis of the deposited data

Results flagged for a closer look

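The change from day 0 to day 7 differed between constructs by the interaction term in limma, at an adjusted p below 0.05 and over 2-fold, in the following genes, with values as differences on the log2(FPKM + 1) scale. For full-length NFIA minus control these were Slc2a4 (-1.79), Pfkm (-1.14), Pgam2 (-2.63), Ldha (1.29) and Ldhb (-1.14). For the Δpro#3 mutant minus control they were Pygm (1.06) and Eno3 (1.41). For the mutant minus full-length NFIA they were Slc2a4 (1.20), Pfkm (1.53), Pygm (1.79), Eno3 (2.25), Pgam2 (3.33) and Ldhb (1.54). Over all 12408 genes, 18.6% were called for full-length NFIA minus control and 6.21% for the mutant minus control. For the mutant minus full-length NFIA, 7809 genes passed the p threshold in the fit with a replicate block, counted without the 2-fold limit. The share past 2-fold is not given here for that contrast. The 3 contrasts share samples and are not independent of each other. Sizes for Slc2a4, Pygm and Pgam2, which were low at day 0, depend on the pseudocount.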

How the results depend on the processing

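Alternatives were counted for 181 results of single members, giving 3914 values. Of these, 3803 had the direction and call of the value reported, 67 lost the call, 18 gained it and 26 changed sign. Differences in change between constructs were counted only in part. Those of Pfkm and Slc2a4 in the forskolin response of the mutant minus control, which had not passed, were left out. For that response in the mutant minus full-length NFIA only Slc2a1 was included. Results left out could not be counted as gaining a call or changing sign. A sign change past the test in the reported fit occurred for Pygm in the difference between full-length NFIA and control over time, at 0.38 with a pseudocount of 0.1 and 0.60 with limma-voom. Both of these values passed the adjusted p threshold in the opposite direction. At day 0 Pygm was lower with full-length NFIA than in controls, and the FPKM + 1 scale understates a rise from a low level. The others had not passed: median-ratio scaling gave Pfkm 0.023 (mutant against control with forskolin), Eno3 0.12 and Hk1 0.15 (full-length NFIA over time) and Pgam2 0.041 (forskolin in controls), and limma-voom gave Ldhb -0.023 (mutant against full-length NFIA, day 0). Leaving out samples gave -0.044 to 0.0067 for Eno3 and -0.067 to 0.071 for Ldhb in the last comparison, -0.13 to 0.024 for that of Pfkm, -0.10 to 0.034 for Hk1 (mutant against full-length NFIA with forskolin), -0.11 to 0.043 for Eno3 and -0.058 to 0.032 for Hk1 (full-length NFIA over time), and -0.029 to 0.11, -0.017 to 0.068 and -0.11 to 0.081 for Eno3, Hk1 and Pgam2 (forskolin in controls).

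Members past 3-fold at day 0 numbered 1 for the mutant against control, 2 with a pseudocount of 0.1 or with limma-voom, 0 with a minimum of 5 FPKM and 0 to 1 when samples were left out. For full-length NFIA they numbered 2, and 0 with a minimum of 5 FPKM, which leaves fewer genes tested. Counted as fragments not divided by length, the day 7 share differences from control became, in percentage points, -42.0 (Pfkm), 4.46 (Eno3), -62.7 (Pgam2) and 1.82 (Ldha) for full-length NFIA, and -7.59 (Pygm), 6.94 (Eno3), -21.1 (Pgam2) and 0.473 (Ldha) for the mutant. With Eno1b counted, chosen after seeing the data, those of Eno3 became -15.7 and 6.28.

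Samples with the same replicate number did not deviate together (mean correlations -0.031 to 0.018), so the numbers were not taken as pairs. The replicate block moved none of 51 counts by over 1.5 times, and with it Ldhb lost 2 calls, against control with forskolin in the mutant (0.20, adjusted p = 0.0681) and in the difference of forskolin responses (-0.36, 0.0614). Genes near the filter, Slc2a4 at day 0 above all, rest on few fragments, and fold changes there depend on the pseudocount. With 3 samples a group, small changes may be missed.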
